A study of Mus musculus with 18 samples.

Results

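The genes described here encode the digestive machinery of the lysosome: its proteases, its membrane proteins and the proton pump that acidifies it. They were taken by symbol: cathepsins (Cts followed by 1 letter), genes beginning with Atp6v, Atp6ap or Lamtor, and Lamp1, Lamp2, Cd63, Scarb2, Npc1, Npc2, Mcoln1, Tfeb, Tfe3, Mitf, Psap, Grn, Lipa and Tpp1. The rule found 66 of the 55291 genes counted. Of these, 58 had at least 1 count in the 12 oocyte libraries and 8 had none.

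RNA was measured in oocytes of 5-week-old mice in which both copies of Vps34, the gene for the class III phosphatidylinositol 3-kinase (symbol Pik3c3), were floxed, that is, flanked by sites that Cre recombinase cuts. Conditional knockout (cKO) mice also carried Zp3-Cre, whose promoter is active in oocytes from the growth phase on, so that the flanked segment is lost there. Control mice carried the same floxed alleles without Cre, so a direct effect of Cre cannot be told apart from the deletion. The 4 groups were cKO MII, control MII, cKO GV and control GV, with 3 libraries of 5 oocytes each. GV oocytes, which hold an intact nucleus called the germinal vesicle, were taken 46 h after PMSG, a hormone that stimulates follicles. MII oocytes, arrested at metaphase of the second meiotic division, were taken 14 h after hCG, which triggers ovulation. Columns marked T were read as cKO and columns marked C as control, and every genotype direction rests on that reading. The series calls the replicates biological, and no label used here ties a library to an animal, so the p-values measure the spread between these libraries.

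Lysosomes are the end point of endocytosis and autophagy. The V-ATPase, a rotary pump with a membrane sector (V0) that carries protons and a cytosolic sector (V1) that hydrolyses ATP, keeps their lumen acidic, and cathepsins cleave proteins there. The Ragulator complex on the outer face anchors the Rag GTPases, which recruit the growth kinase complex mTORC1 when amino acids are plentiful. TFEB, TFE3 and MITF are related transcription factors that bind E-box motifs at many lysosomal genes. The PI3P made by VPS34 acts on endosomes and autophagosomes upstream of the lysosome. Fully grown oocytes make almost no new RNA, so their mRNA changes through selective decay and through lengthening or shortening of poly(A) tails. Smart-seq2, the method used, primes on poly(A), and a change in mRNA amount cannot be told apart from a change in tail length that alters capture.

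Libraries held 2609783 to 4696626 gene counts, and spike-in RNA (ERCC) took 7.09% to 18.7% of all counts at GV and 29.3% to 39.9% at MII. Values per library are in CPM (the usual depth-scaled count, here over gene counts without ERCC), listed in the order of libraries 1, 2 and 3. Pik3c3 stood at 5.36, 2.42 and 3.21 CPM in cKO MII and 10.6, 21.4 and 17.1 CPM in control MII libraries, and at 1.56, 1.65 and 2.67 CPM in cKO GV and 35.5, 28.8 and 25.8 CPM in control GV libraries. Of 12 oocyte markers 11 had counts, with Sohlh1 at 0, and their summed level was 16735 to 20248 CPM at MII and 31546 to 45764 CPM at GV. Library 1 of control MII stood apart from the other control MII libraries in Manba, a lysosomal gene. Manba was at 0.818 CPM in it and at 17.2 and 44.0 CPM in those others. It was at 39.9, 33.6 and 32.4 CPM in cKO MII libraries. At GV it was at 0.933, 0.276 and 0.9998 CPM in cKO and 51.1, 41.4 and 48.8 CPM in control libraries. All cKO MII libraries thus lay far above the cKO GV libraries, and Manba did not separate the genotypes at MII as it did at GV. Because of the low Manba value, genotype results at MII are also given without control MII library 1. Summed cumulus and granulosa markers, leaving out Serpine2, were at 181 to 872 CPM in cKO MII, 223 to 394 CPM in control MII, 80.5 to 109 CPM in cKO GV and 103 to 131 CPM in control GV libraries, highest in cKO MII library 1. All 18 markers of that list had counts, and Tnfaip6 and Ptx3, matrix genes of the expanding cumulus, were at 0 in every GV library.

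At GV, no member differed detectably between cKO and control oocytes. Of the 66 members, 41 had enough counts to be tested, and 0 differed at an adjusted p under 0.05 (quasi-likelihood test of edgeR, Benjamini-Hochberg adjusted over all 10911 genes tested). The background was 0.0825%, 9 of 10911 genes (0.0183% higher and 0.0642% lower in cKO). DESeq2 also called 0 members, and 2 members had an unadjusted p under 0.05 in edgeR, as had 2.2% of all genes. The median log2 fold change, cKO over control, was 0.01 for the members and 0.01 for all genes tested. For 31 of the 41 members the 95% confidence interval lay within a 2-fold difference in either direction, so a change of 2-fold or more in the mRNAs of most pump subunits, Ragulator subunits and LAMP1 fell outside the interval. The intervals of the other 10 reached past 2-fold.

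The members with the smallest unadjusted p at GV were Ctsl, Mcoln1 and Lamtor1. Ctsl, which encodes the cysteine protease cathepsin L, stood at 6.84, 9.64 and 14.3 CPM in cKO GV libraries and 23, 22.4 and 15.3 CPM in control GV libraries. The groups did not overlap, and the log2 difference was -1.03, SE 0.30 (95% interval -1.69 to -0.38, edgeR adjusted p = 1). Mcoln1, the gene of the lysosomal calcium channel TRPML1, stood at 12.1, 13.8 and 18.7 CPM in cKO and 23, 22.7 and 27.7 CPM in control libraries. It was lower in every cKO library than in any control library (-0.78, SE 0.24, edgeR adjusted p = 1). Lamtor1, which anchors Ragulator in the membrane, stood at 114, 122 and 127 CPM in cKO and 91.3, 107 and 79.2 CPM in control libraries, again without overlap (0.34, SE 0.18, edgeR adjusted p = 1). These members were picked by their small p, and full separation of 3 against 3 libraries has an exact permutation p of 0.1 at the smallest. The lack of overlap between genotypes is thus no added evidence, here or at MII. At ERCC library sizes, where the median of all genes moved to 0.46, Ctsl was at -0.64 and Mcoln1 at -0.41. The cumulus and granulosa marker sums without Serpine2 were 83.4, 80.5 and 109 CPM in cKO GV and 131, 103 and 106 CPM in control GV libraries. With Serpine2 they were 352, 430 and 607 CPM in cKO GV and 516, 422 and 527 CPM in control GV libraries. Single markers differed from the sums. Inha was at 14.6, 12.1 and 15.3 CPM in cKO GV and 37.2, 36.4 and 28.3 CPM in control GV libraries. Hsd17b1 was at 1.56, 1.10 and 0.9998 CPM against 8.12, 5.28 and 6.39 CPM, while Cyp19a1 and Nr5a2 overlapped. Of 8 markers tested at GV, 2 had an unadjusted p under 0.05 in edgeR and 0 passed. The part of these markers in the value of Ctsl was not tested.

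At MII, 41 members were tested and 0 passed, against a background of 0%, 0 of 9677 genes. DESeq2 called 0 members as well. In edgeR 5 members had an unadjusted p under 0.05, as had 9.01% of all genes, and the smallest adjusted p was 0.53. The median difference was 0.00 for members and 0.02 for all genes, and 24 of the 41 intervals lay within 2-fold. Grn, the gene of progranulin, a secreted precursor that is cut into granulins in lysosomes, stood at 41, 49.3 and 39.9 CPM in cKO MII and 126, 58.9 and 65.7 CPM in control MII libraries. It was lower in each cKO library than in any control library (-1.0, SE 0.31), but control library 1 stood well above the other control libraries, and without it the difference was -0.50 (edgeR adjusted p = 0.806). Atp6v1b2, the pump's widely expressed B subunit, stood at 127, 142 and 120.5 CPM in cKO and 209, 144 and 202 CPM in control libraries (-0.55, SE 0.19), and without control library 1 the difference was -0.39. Ctsd, the aspartic protease cathepsin D, stood at 6.51, 5.45 and 7.13 CPM in cKO and 12, 12.7 and 8.96 CPM in control libraries (-0.85, SE 0.33), with no overlap, and without control library 1 the difference was -0.74. Atp6v1e1 and Ctsh were the other members with an unadjusted p under 0.05, at 0.64, SE 0.25 and -0.54, SE 0.25, or 0.39 and -0.43 without control library 1. The difference of Mcoln1 was -0.51, SE 0.61 with all libraries and 0.56 without control library 1, which was at 75.0 CPM, against 15.4 and 23.1 CPM in the other control MII libraries.

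**Figure D1:**
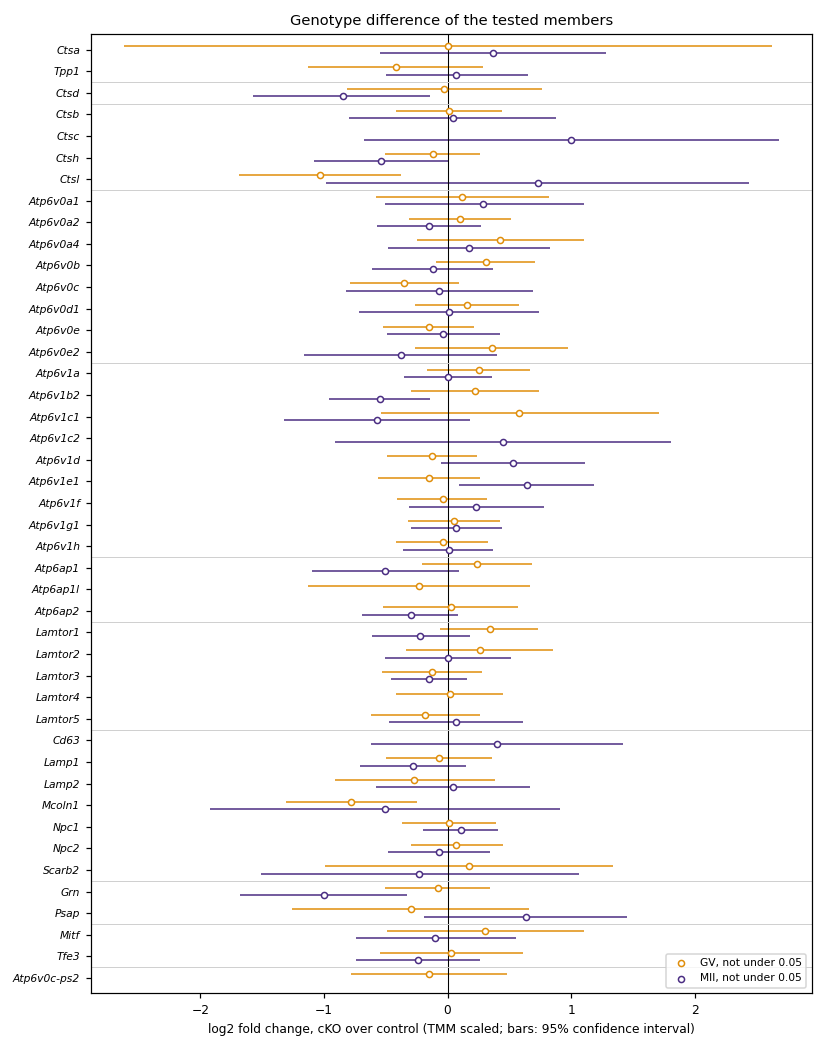
Log2 fold change of each tested member, cKO over control, at GV (orange) and at MII (purple). Circles are edgeR estimates at TMM scaling, bars are 95% confidence intervals, and gray lines separate the roles of the encoded proteins. All circles are open because 0 of 41 members passed at either stage; most bars cross 0.

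Between GV and MII most members changed in their share of the mRNA. Of 44 members tested over all 12 libraries, 32 differed between MII and GV in cKO oocytes, 15 higher and 17 lower at MII. This is 72.7% of the members tested, against a background of 63.5% of 11607 genes (29.5% higher, 34% lower). In control oocytes 31 differed, 16 higher and 15 lower, or 70.5% against a background of 63.9% (30.1% higher, 33.8% lower). The share of members that changed was near that of all genes. In both genotypes 13 members were higher and 14 lower at MII, 5 passed in cKO oocytes alone, 4 in control oocytes alone, 8 in neither, and 0 went in opposite directions. Within the V-ATPase and Ragulator, subunits of the same complex changed in opposite directions.

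These differences are relative to the other mRNAs of the library. With libraries scaled to ERCC RNA, the median of all genes was -2.37 in cKO and -1.72 in control oocytes (MII over GV, log2). This scale varied between libraries. Gene counts per ERCC count were 13.1, 7.43 and 6.29 in cKO GV and 4.35, 7.01 and 8.69 in control GV libraries. At MII they were 2.03, 2.21 and 1.51 in cKO and 1.85, 2.31 and 2.42 in control libraries. Whether the medians differ between genotypes was not tested. At ERCC library sizes all 17 members lower in cKO and all 15 lower in control oocytes remained lower and passed. Of the members that were higher, Cd63, Ctsc and Ctsl alone stayed above 0, and the other 12 in cKO and 13 in control oocytes had estimates below 0. All 3 passed in cKO oocytes (1.88 for Cd63, 3.03 for Ctsc and 1.72 for Ctsl), and in control oocytes Ctsc passed (1.72), while Cd63 (1.41, adjusted p = 0.0601) and Ctsl (0.46, adjusted p = 0.337) did not. "Higher" below therefore means a larger share of the mRNA captured at MII, and for every such member except those 3 the estimate per unit of ERCC RNA was below 0.

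**Figure D2:**
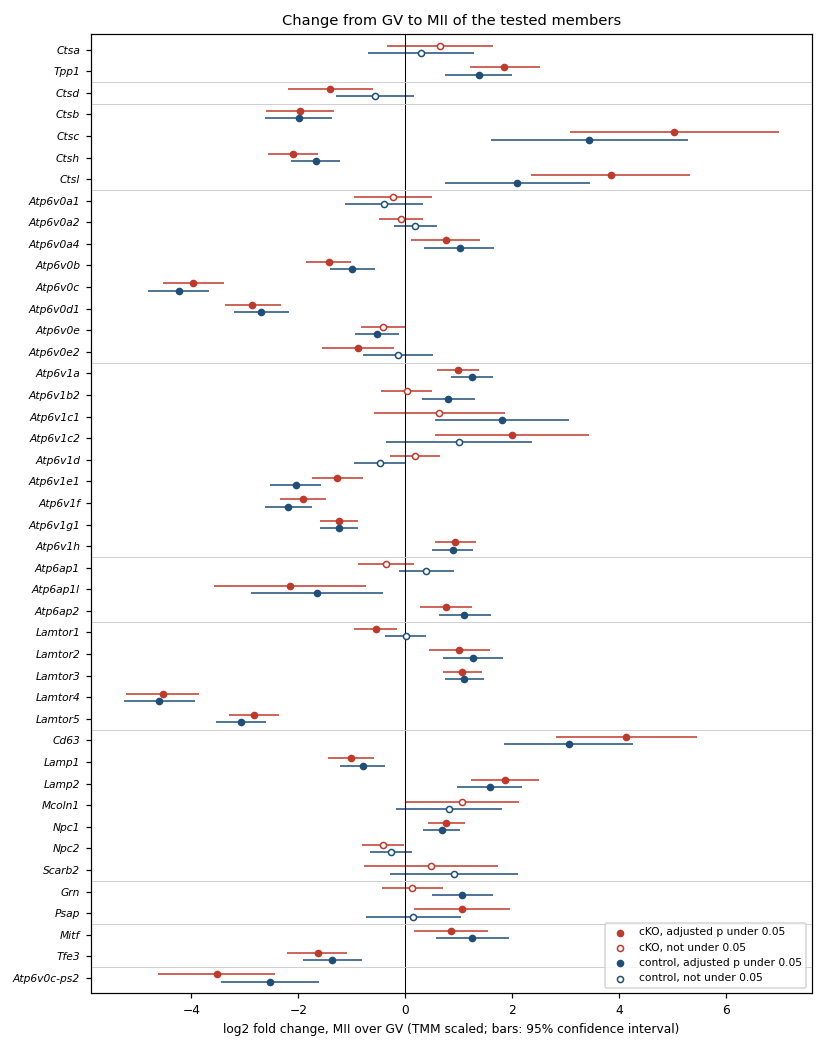
Log2 fold change of each of the 44 tested members, MII over GV, in cKO (red) and control (blue) oocytes at TMM scaling. Filled circles passed an adjusted p of 0.05, open circles did not, and bars are 95% confidence intervals. The estimates run from -4.54 (Lamtor4) to 5.04 (Ctsc) in cKO oocytes, and the genotypes lie close together for most members; at ERCC library sizes all filled circles right of 0 but Cd63, Ctsc and Ctsl move left of 0.

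Ragulator split by its dimers. Its 5 subunits consist of the membrane anchor LAMTOR1, which wraps around a pair of dimers, LAMTOR2 with LAMTOR3 and LAMTOR4 with LAMTOR5. The mRNAs of the first dimer were higher at MII and those of the second were lower, in both genotypes.

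Lamtor4 (chromosome 5, 138255482 to 138259398, plus strand, GRCm38) was the member with the largest loss. Lamtor4 had 3.83, 1.82 and 2.14 CPM in cKO MII libraries and 65.6, 75.5 and 56.3 CPM in cKO GV libraries. It had 1.09, 2.72 and 3.26 CPM in control MII libraries and 75.4, 55.4 and 59.8 CPM in control GV libraries. Every MII library lay far below every GV library, 23.3-fold lower in cKO (-4.54, SE 0.33, adjusted p = 1.7e-09) and 24.2-fold lower in control oocytes (-4.60, SE 0.32, adjusted p = 1.0e-09). Its partner Lamtor5 (chromosome 3, 107278858 to 107284082, plus strand) followed it. Lamtor5 had 31.04, 19.7 and 23.5 CPM in cKO MII libraries and 136, 219 and 229.9 CPM in cKO GV libraries. It had 19.1, 25.96 and 23.9 CPM in control MII libraries and 238, 194 and 206 CPM in control GV libraries. It was 7.13-fold lower in cKO (-2.83, SE 0.22, adjusted p = 5.7e-09) and 8.41-fold lower in control oocytes (-3.07, SE 0.22, adjusted p = 1.9e-09), again without overlap.

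Lamtor3, the most abundant member of the complex by CPM (chromosome 3, 137918506 to 137928900, plus strand), moved the other way. Lamtor3 had 456, 544 and 428 CPM in cKO MII libraries and 206, 228 and 320.3 CPM in cKO GV libraries. It had 499, 500.2 and 544 CPM in control MII libraries and 298, 244 and 252 CPM in control GV libraries. The log2 change was 1.07, SE 0.18, adjusted p = 4.0e-05 in cKO and 1.11, SE 0.18, adjusted p = 2.8e-05 in control oocytes, and no MII library overlapped a GV library. Lamtor2 had 35.3, 52.7 and 50.6 CPM in cKO MII libraries and 30.8, 27 and 17.7 CPM in cKO GV libraries. It had 52.9, 39.2 and 42.4 CPM in control MII libraries and 23, 15.8 and 23 CPM in control GV libraries. Lamtor2 was 2.01-fold higher in cKO (adjusted p = 0.00325) and 2.42-fold higher in control oocytes (adjusted p = 4.7e-04). Both estimates were below 0 at ERCC library sizes, with Lamtor2 at -1.42 in cKO and -0.50 in control oocytes and Lamtor3 at -1.21 and -0.61; the control values did not pass.

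Lamtor1 was at 79.3, 80.2 and 64.9 CPM in cKO MII and 114, 122 and 127 CPM in cKO GV libraries, lower without overlap (-0.55, SE 0.19, adjusted p = 0.0159). The call was lost when cKO MII library 3 was left out (-0.49, adjusted p = 0.0557). In control oocytes it was at 67.9, 87.5 and 100.2 CPM at MII and 91.3, 107 and 79.2 CPM at GV, with overlap (0.01, SE 0.19, adjusted p = 0.958). The difference between the genotypes' changes was -0.56, SE 0.27 and did not pass (adjusted p = 0.875). The summed CPM of the 5 subunits overlapped between stages, at 569.6 to 714 CPM at MII and 551 to 751 CPM at GV, and Lamtor3 was the highest of the 5 in each library. Per kb of exon, the order of the subunits in cKO oocytes was Lamtor3 (115 ± 14.6, mean ± SD of 3 libraries), Lamtor2 (37.9 ± 7.81), Lamtor5 (27.99 ± 6.54), Lamtor1 (23.3 ± 2.68) and Lamtor4 (1.99 ± 0.832 CPM per kb) at MII. At GV it was Lamtor5 (221 ± 58.4), Lamtor3 (60.6 ± 14.6), Lamtor4 (50.5 ± 7.36), Lamtor1 (37.6 ± 2.16) and Lamtor2 (20.7 ± 5.55). At MII the neighbours Lamtor2, Lamtor5 and Lamtor1 lay within about 1 or 2 SD of each other, and Lamtor4 was below all the others in every library. Lamtor1, Lamtor3 and Lamtor5 have near-identical pseudogene copies (at least 95% identity over at least 200 bases), and Lamtor1 overlaps Lrrc51, so reads shared with these could have been dropped or added.

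**Figure D3:**
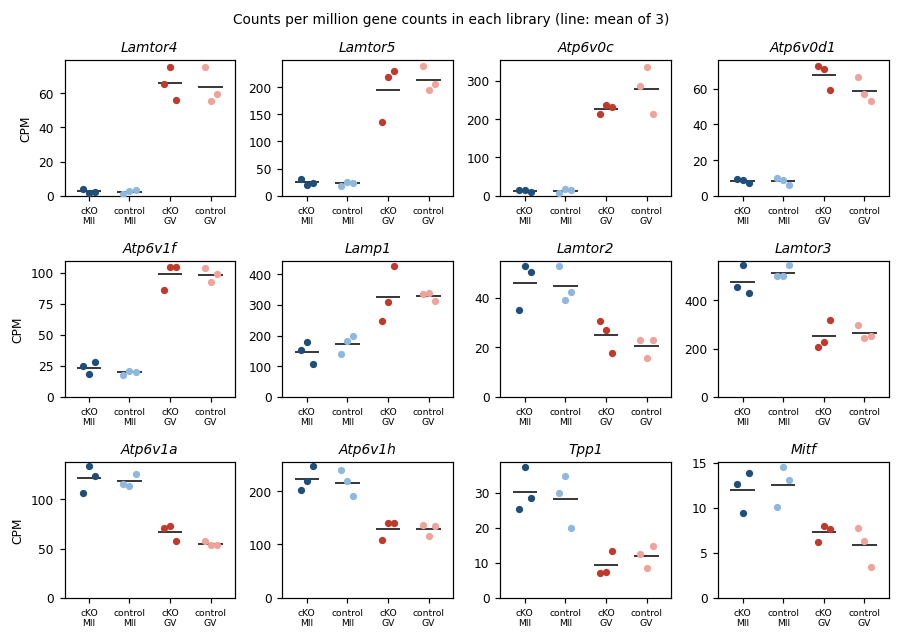
CPM of 12 members in each library, in the order cKO MII, control MII, cKO GV, control GV, with each axis starting at 0 and a line at the mean of 3. MII points lie below all GV points for Lamtor4, Lamtor5, Atp6v0c, Atp6v0d1, Atp6v1f and Lamp1 and above all GV points for Lamtor2, Lamtor3, Atp6v1a, Atp6v1h, Tpp1 and Mitf; at ERCC library sizes the estimates of these last 6 were below 0, not all of them past the threshold.

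The membrane sector of the pump held a smaller share of the mRNA at MII. Of 9 V0 genes 8 were tested, and 1 was higher and 4 lower in each genotype, against 29.5% higher and 34% lower among all genes in cKO and 30.1% and 33.8% in control oocytes. The summed level of V0 genes was 232 to 269 CPM in cKO MII and 592 to 669.8 CPM in cKO GV libraries, and 222 to 273 CPM in control MII and 580.4 to 719.8 CPM in control GV libraries, without overlap between stages.

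Atp6v0c encodes the proteolipid c, whose copies form most of the rotating ring in the membrane (chromosome 17, 24163866 to 24169702, minus strand). Atp6v0c had 14.9, 14.8 and 9.62 CPM in cKO MII libraries and 212, 237 and 232 CPM in cKO GV libraries. It had 7.36, 18.4 and 14.9 CPM in control MII libraries and 287, 336 and 213 CPM in control GV libraries. It was 15.7-fold lower at MII in cKO (-3.97, SE 0.27, adjusted p = 1.0e-09) and 18.9-fold lower in control oocytes (-4.24, SE 0.27, adjusted p = 3.6e-10). The pseudogene Atp6v0c-ps2 shares 99.8% identity with Atp6v0c over 465 bases and fell with it (-3.52 in cKO, -2.53 in control), so reads of the pair cannot be told apart with certainty. It was at 0.383, 0.908 and 0.713 CPM in cKO MII, 2.18, 0.604 and 1.63 CPM in control MII, 10.3, 8.27 and 8.66 CPM in cKO GV and 10.1, 10.6 and 8.52 CPM in control GV libraries.

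Atp6v0d1 encodes subunit d, the cap that couples the ring to the central stalk (chromosome 8, 105524465 to 105566047, minus strand). Atp6v0d1 had 9.20, 8.78 and 7.48 CPM in cKO MII libraries and 72.5, 71.1 and 59.3 CPM in cKO GV libraries. It had 9.81, 8.75 and 5.97 CPM in control MII libraries and 66.3, 56.99 and 53.2 CPM in control GV libraries. The loss was 7.24-fold in cKO (-2.86, SE 0.25, adjusted p = 2.1e-08) and 6.46-fold in control oocytes (-2.69, SE 0.25, adjusted p = 3.6e-08). Atp6v0b, the related ring subunit c'', was lower too (-1.43, SE 0.20, adjusted p = 7.5e-06 in cKO and -0.99, SE 0.20, adjusted p = 2.9e-04 in control). Its MII libraries lay between 23.2 and 32.95 CPM and its GV libraries between 58.8 and 88.99 CPM.

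Subunit a, which forms the proton half-channels and sends the pump to a given membrane, has several genes. Atp6v0a2 was the most abundant of those in the rule and did not pass in either genotype, with 48.7, 61.8 and 48.1 CPM in cKO MII, 59.2, 51.3 and 60.8 CPM in control MII, 54.1, 56.2 and 73.98 CPM in cKO GV and 57.5, 50.9 and 57.3 CPM in control GV libraries (-0.07, SE 0.20 in cKO and 0.19, SE 0.19 in control). Atp6v0a4, known from kidney, was next by CPM. Atp6v0a4 had 11.9, 20.6 and 21.7 CPM in cKO MII libraries and 12.1, 13.2 and 9.998 CPM in cKO GV libraries. It had 15.3, 18.4 and 13.6 CPM in control MII libraries and 9.13, 5.80 and 10.6 CPM in control GV libraries. MII and GV overlapped in cKO, where the call (0.76, SE 0.31, adjusted p = 0.0391) was lost when any of 6 libraries was left out, including a control GV library; in control oocytes it was 1.02, SE 0.31, adjusted p = 0.00846. Both estimates were below 0 at ERCC library sizes. Atp6v0a1 was low and did not pass (-0.22, SE 0.35 in cKO, -0.39, SE 0.35 in control).

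Atp6v0e, a small V0 subunit, was the most abundant of the sector by mean CPM at MII and came after Atp6v0c at GV. Atp6v0e had 111, 86.6 and 141 CPM in cKO MII libraries and 146, 168 and 187 CPM in cKO GV libraries. It had 92.4, 119.5 and 129 CPM in control MII libraries and 188, 182 and 168 CPM in control GV libraries. It passed as lower at MII in control (-0.52, SE 0.20, adjusted p = 0.0268) but not in cKO oocytes (-0.41, SE 0.20, adjusted p = 0.0763). In control oocytes leaving out any of 4 libraries took the adjusted p to 0.0581 to 0.088. Its paralog Atp6v0e2 was at 9.96, 6.96 and 4.63 CPM in cKO MII, 7.36, 9.36 and 10.6 CPM in control MII, 13.7, 12.9 and 17 CPM in cKO GV and 8.12, 12.1 and 12.1 CPM in control GV libraries. It passed in cKO (-0.88, SE 0.32, adjusted p = 0.023) but not without GV library 3 or MII library 2 or 3 of that genotype. Atp6v0d2, the osteoclast paralog of subunit d, was under the count filter with 54 counts in all, at 3.07, 2.42 and 3.56 CPM in cKO MII, 1.36, 0 and 0.272 CPM in control MII, 0.622, 1.38 and 0.9998 CPM in cKO GV and 0.676, 1.32 and 1.06 CPM in control GV libraries.

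The catalytic V1 sector split. Of 13 V1 genes 9 were tested, with 3 higher and 3 lower in cKO and 4 higher and 3 lower in control oocytes, against the same shares of all genes as for V0. The catalytic subunit A and the regulatory subunit H were higher in both genotypes. Of the stalk subunits, E, F and G were lower in both, but D passed in neither. For subunit C, Atp6v1c1 passed as higher in control oocytes alone and Atp6v1c2 in cKO oocytes alone. Atp6v1a had 107, 134 and 124 CPM in cKO MII libraries and 70.9, 72.7 and 57.7 CPM in cKO GV libraries. It had 116, 114 and 125 CPM in control MII libraries and 57.8, 53.8 and 53.2 CPM in control GV libraries. Atp6v1a, which holds the ATP-binding catalytic sites, was 1.99-fold higher in cKO (0.99, SE 0.19, adjusted p = 1.6e-04) and 2.38-fold higher in control oocytes (1.25, SE 0.19, adjusted p = 1.5e-05). Atp6v1h, which stops ATP hydrolysis when V1 detaches, behaved alike: every MII library, from 190.1 to 247 CPM, lay above every GV library, from 108 to 141 CPM (0.93, SE 0.18, adjusted p = 2.5e-04 in cKO, 0.90, SE 0.18, adjusted p = 3.4e-04 in control). At ERCC library sizes these 2 genes were at -1.38 and -1.39 in cKO and -0.48 and -0.87 in control oocytes.

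Atp6v1f, a subunit of the central rotor stalk, had the largest decrease of the V1 genes tested. Atp6v1f had 24.9, 18.2 and 27.8 CPM in cKO MII libraries and 86.5, 105 and 105 CPM in cKO GV libraries. It had 17.99, 20.8 and 20.1 CPM in control MII libraries and 104, 92.6 and 98.8 CPM in control GV libraries. It was 3.78-fold lower in cKO (-1.92, SE 0.21, adjusted p = 2.8e-07) and 4.55-fold lower in control oocytes (-2.19, SE 0.21, adjusted p = 5.5e-08). Atp6v1e1 had 89.3, 84.8 and 96.6 CPM in cKO MII libraries and 191, 226 and 308 CPM in cKO GV libraries. It had 32.4, 73.1 and 66.5 CPM in control MII libraries and 287, 228 and 259.8 CPM in control GV libraries. Atp6v1e1, of the peripheral stalks, changed by -1.27, SE 0.23, adjusted p = 8.9e-05 in cKO and -2.05, SE 0.23, adjusted p = 5.0e-07 in control oocytes. The difference of these changes was 0.78, SE 0.32, the smallest unadjusted p of any member in that test, with adjusted p = 0.875 and a value of 0.53 without control MII library 1. Atp6v1g1, the partner of E, was at 76.1 to 106 CPM at MII and 198 to 269 CPM at GV (-1.24, SE 0.17 in cKO, -1.24, SE 0.17 in control). Its other copies were nearly silent, Atp6v1g2 with 28 counts over 12 libraries and Atp6v1g3 with 1.

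Atp6v1d, the axle of the rotor, passed in neither genotype. Atp6v1d had 175, 194 and 222 CPM in cKO MII libraries and 165, 191 and 224 CPM in cKO GV libraries. It had 74.2, 186 and 146 CPM in control MII libraries and 216, 192 and 203 CPM in control GV libraries. Control MII library 1 was lowest, and the changes were 0.18, SE 0.23 in cKO and -0.47, SE 0.23 in control oocytes. Atp6v1b2 did not pass in cKO (0.03, SE 0.23, adjusted p = 0.933), with 127, 142 and 120.5 CPM at MII and 104, 118 and 205 CPM at GV. In control oocytes it was higher (0.81, SE 0.23, adjusted p = 0.00536), with 209, 144 and 202 CPM at MII and 106, 103 and 141 CPM at GV, although below 0 at ERCC library sizes. The difference between genotypes was -0.79, SE 0.33 (adjusted p = 0.875). Its kidney paralog Atp6v1b1 had 4 counts in all and Atp6v1e2, the testis copy of subunit E, had 1.

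Subunit C, which joins V1 to V0, came mainly from Atp6v1c1. Atp6v1c1 had 34.5, 76.3 and 57.4 CPM in cKO MII libraries and 25.5, 37.2 and 58.7 CPM in cKO GV libraries. It had 114, 60.7 and 67.3 CPM in control MII libraries and 4.73, 28.8 and 41.3 CPM in control GV libraries. It passed in control oocytes (1.81, SE 0.57, adjusted p = 0.0153), where GV library 1 was far below the others; without that library the change was 1.33, and without MII library 1 it did not pass (1.39, adjusted p = 0.0772). In cKO oocytes it did not pass (0.64, SE 0.57). Atp6v1c2 was at 1.53, 4.24 and 3.21 CPM in cKO MII, 3.54, 0.906 and 1.90 CPM in control MII, 0.622, 1.10 and 0.667 CPM in cKO GV and 1.69, 1.32 and 0.639 CPM in control GV libraries. It passed in cKO alone (2.0, SE 0.69, adjusted p = 0.0163), not without MII library 2 or GV library 1 or 3 of that genotype. The summed level of V1 genes was 866 to 983 CPM in cKO MII and 965 to 1369 CPM in cKO GV libraries, which overlapped, and 883 to 916 CPM in control MII and 1042 to 1168 CPM in control GV libraries.

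Per kb of exon, subunit levels were closer together at MII than at GV within V1. In cKO oocytes the highest and lowest of the 8 abundant V1 genes were Atp6v1g1 (81.9 ± 10.1, mean ± SD, n = 3) and Atp6v1c1 (10.01 ± 3.74 CPM per kb) at MII, and Atp6v1g1 (213 ± 24.6) and Atp6v1c1 (7.22 ± 3.002) at GV. Another 5, written as B (24.5 ± 2.07), H (22.9 ± 2.37), F (22.2 ± 4.65), E (21.9 ± 1.45) and A (20.1 ± 2.29), lay within about 2 SD of one another at MII in cKO oocytes, whereas at GV F (92.95 ± 10.05) and A (11.1 ± 1.36) were far apart. In control MII libraries the same 5 were more spread, from B (34.8 ± 6.74) to E (13.95 ± 5.31). Control F and A were at 18.5 ± 1.38 and 19.6 ± 1.03 at MII and at 92.7 ± 5.44 and 9.09 ± 0.414 at GV. In V0 the order was led by Atp6v0e (30.4 ± 7.32) at MII and by Atp6v0c (67.1 ± 3.96) at GV, and Atp6v0c stood at 3.88 ± 0.898 at MII. Exon length here is that of all annotated exons of a gene, so levels between genes depend on which isoforms oocytes use.

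**Figure D4:**
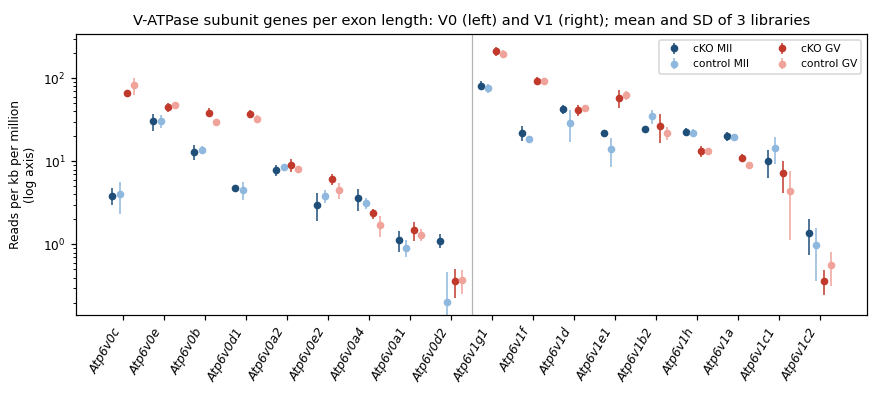
Level per exon length (CPM per kb of exon, the same as reads per kb scaled to depth, log axis) of V0 genes, left of the gray line, and V1 genes, right of it, with over 50 counts; points are means and bars SDs of 3 libraries, in the order cKO MII, control MII, cKO GV, control GV. Atp6v0c, Atp6v0d1, Atp6v1f and Atp6v1e1 drop at MII, while Atp6v1a and Atp6v1h lie higher at MII on this scale, with estimates below 0 at ERCC library sizes (not past the threshold for Atp6v1a in control oocytes).

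The accessory proteins of the pump also went different ways. Atp6ap2, the prorenin receptor, needed to assemble the pump, was higher at MII: 90.8, 87.5 and 84.8 CPM in cKO MII and 35.8, 56.2 and 80.3 CPM in cKO GV libraries (0.77, SE 0.23, adjusted p = 0.00777). In control oocytes it was at 113, 88.4 and 114 CPM at MII and 53.1, 46.97 and 61.5 CPM at GV (1.11, SE 0.23, adjusted p = 4.1e-04), and both were below 0 at ERCC library sizes. Atp6ap1, another assembly factor, did not pass (-0.36, SE 0.25 in cKO, 0.40, SE 0.25 in control, difference -0.76, SE 0.35 with adjusted p = 0.875). The related Atp6ap1l was low and lower at MII, with 1.53, 0.908 and 0 CPM in cKO MII and 2.18, 4.13 and 5.999 CPM in cKO GV libraries (-2.15, SE 0.68, adjusted p = 0.00985, or -2.82 without cKO MII library 1). In control oocytes (0.545, 1.81 and 1.63 CPM at MII, 5.75, 3.96 and 4.26 CPM at GV, -1.65, SE 0.59, adjusted p = 0.0204) it did not pass without GV library 1 or MII library 1.

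Among the proteases, cathepsins B and H, the main ones of the GV oocyte, were lower at MII, and cathepsins C and L were higher. Ctsh, an aminopeptidase, had the highest mean CPM of the cysteine cathepsins at GV, and Ctsl had the highest at MII. Ctsh had 37.9, 56.6 and 27.8 CPM in cKO MII libraries and 164, 186 and 232 CPM in cKO GV libraries. It had 61.6, 58.3 and 53.5 CPM in control MII libraries and 194, 201 and 215 CPM in control GV libraries. It was 4.30-fold lower in cKO (-2.10, SE 0.22, adjusted p = 2.4e-07) and 3.19-fold lower in control oocytes (-1.67, SE 0.22, adjusted p = 2.8e-06). Ctsb, an abundant endopeptidase and exopeptidase, was 3.92-fold and 3.97-fold lower, with 10.4 to 28.4 CPM at MII and 67.7 to 98.3 CPM at GV. Ctsb overlaps Fdft1 and Ctsd overlaps Gm49369, and without a stated strand setting reads of such pairs cannot be told apart. Ctsd was at 6.51, 5.45 and 7.13 CPM in cKO MII and 27.4, 13.5 and 14.3 CPM in cKO GV libraries and passed (-1.40, SE 0.38, adjusted p = 0.00341). In control oocytes it was at 12, 12.7 and 8.96 CPM at MII and 15.2, 25.9 and 13.4 CPM at GV and did not pass (-0.56, SE 0.35), and the difference between genotypes was -0.84, SE 0.51 (adjusted p = 0.875).

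The serine protease Tpp1, a tripeptidyl peptidase, was higher in both genotypes. Tpp1 had 25.3, 37.2 and 28.5 CPM in cKO MII libraries and 7.15, 7.44 and 13.3 CPM in cKO GV libraries. It had 29.99, 34.7 and 19.8 CPM in control MII libraries and 12.5, 8.44 and 14.7 CPM in control GV libraries. It was 3.64-fold higher in cKO (1.86, SE 0.31, adjusted p = 4.8e-05) and 2.61-fold higher in control oocytes (1.38, SE 0.30, adjusted p = 5.9e-04), without overlap between stages, and at -0.39 in both at ERCC library sizes. Ctsa, the carboxypeptidase that protects lysosomal sialidase and galactosidase, was low and did not pass (0.66, SE 0.47 in cKO, 0.30, SE 0.47 in control).

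The 3 members that rose on either scale in cKO oocytes were Ctsl, Ctsc and Cd63. They had their highest values in the libraries with the highest sums of cumulus and granulosa markers, Serpine2 left out. Ctsl (chromosome 13, 64359337 to 64370890, minus strand) was at 276, 102 and 29.9 CPM in cKO MII and 6.84, 9.64 and 14.3 CPM in cKO GV libraries, 14.4-fold higher (3.85, SE 0.68, adjusted p = 3.9e-04). In control oocytes it was at 49.1, 133 and 57.8 CPM at MII and 23, 22.4 and 15.3 CPM at GV, 4.29-fold higher (2.10, SE 0.63, adjusted p = 0.0111). Ctsc, cathepsin C, an activator of serine proteases of immune cells, was at 35.3, 11.2 and 3.56 CPM in cKO MII, 6.54, 13.6 and 4.07 CPM in control MII, 0, 0.551 and 0.9998 CPM in cKO GV and 0, 0.792 and 1.28 CPM in control GV libraries (5.04, SE 0.92, adjusted p = 2.0e-04 in cKO, 3.45, SE 0.87, adjusted p = 0.0026 in control). Cd63, a tetraspanin of late endosomes and exosomes, was at 22.99, 7.87 and 6.06 CPM in cKO MII, 7.36, 11.8 and 7.87 CPM in control MII, 1.56, 0.276 and 0.333 CPM in cKO GV and 1.69, 0.792 and 1.06 CPM in control GV libraries (4.14, SE 0.63, adjusted p = 1.7e-05 in cKO, 3.06, SE 0.58, adjusted p = 1.6e-04 in control).

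For all 3, cKO MII library 1 was the highest of the MII libraries, control MII library 2 the second and cKO MII library 3 the lowest. The summed cumulus and granulosa markers without Serpine2 had the same first, second and last MII library. They were at 872, 267 and 181 CPM in cKO MII and 223, 394 and 282 CPM in control MII libraries. At GV they were at 83.4, 80.5 and 109 CPM in cKO and 131, 103 and 106 CPM in control libraries. With Serpine2 the sums were 1972, 1234 and 979 CPM in cKO MII and 1577, 1401 and 1284 CPM in control MII libraries. Control MII library 1 was then second, so the match of the second library rests on leaving out Serpine2. Single markers did not all keep this order. Tnfaip6 did, at 194, 42.1 and 16.8 CPM in cKO MII and 31.1, 90.6 and 75.2 CPM in control MII libraries. Cyp19a1 was highest in control MII library 1 (84.2 CPM), and Vcan was second in cKO MII library 2 (54.5 CPM). Ptx3 and Hsd3b1 were lowest in cKO MII library 2 (1.51 and 24.5 CPM). In the list with Serpine2, 11 of 14 tested markers were higher in cKO MII than in cKO GV, and 9 were higher and 1 lower in control oocytes. Without cKO MII library 1 the cKO changes were 2.84 for Ctsl, 3.93 for Ctsc and 3.38 for Cd63, each still past the threshold. Leaving out a GV library moved some values the other way: Cd63 was at 5.31 without cKO GV library 1, and Ctsc at 5.73 in cKO without cKO GV library 3 and at 4.19 in control without control GV library 3. Without control MII library 2 the control change of Ctsl was 1.59 and no longer passed (adjusted p = 0.0558). The part of cumulus RNA in these results was not tested, and more cells of a type cannot be told apart from more RNA per cell. Cd63 also has a pseudogene that is 98.02% identical to it over 858 bases, and Ctsl overlaps Gm47123. At MII, Ctsl differed between cKO and control by 0.73, SE 0.73 (adjusted p = 0.749), and by -0.29 without cKO MII library 1.

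**Figure D5:**
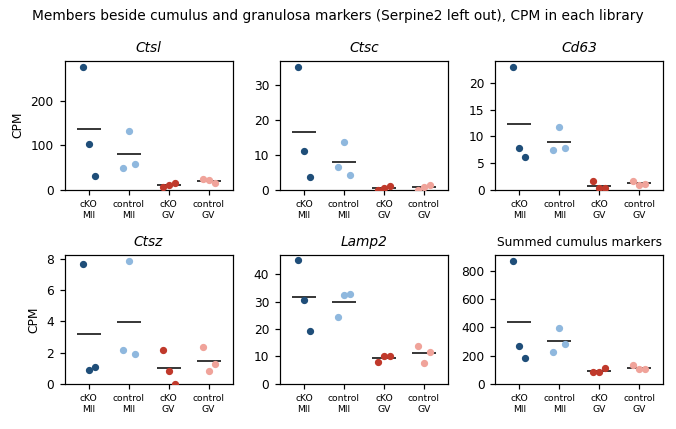
CPM of Ctsl, Ctsc, Cd63, Ctsz and Lamp2 in each library beside the summed level of 17 cumulus and granulosa markers (Serpine2 left out), in the order cKO MII, control MII, cKO GV, control GV, with lines at means of 3. In the MII groups, library 1 of cKO is highest in Ctsl, Ctsc, Cd63, Lamp2 and the marker sum, at 276 CPM for Ctsl and 872 CPM for the markers.

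Cathepsins of restricted tissues were close to absent. Of 7 such genes (Ctsj, Ctsk, Ctsm, Ctsq, Ctsr, Ctss, Ctsw), none reached the count filter, and Ctsq, Ctsr and Ctsw had 0 counts. Ctss, a protease of antigen-presenting cells, had 23 counts, all in cKO MII library 3 (8.20 CPM), and 0 in the other 11 libraries. That library had 1.78 CPM of the leukocyte gene Ptprc, which was at 0.766 CPM in cKO MII library 1, 0.276 CPM in cKO GV library 2 and 0 in the other 9 libraries. Of other immune markers in it, C1qb was at 5.35 CPM, Cd68 at 3.92 CPM, Csf1r at 0.356 CPM, and Adgre1, Lyz2, C1qa, C1qc and Cd14 at 0. A list of 13 immune and blood markers summed to 11.4 CPM in it and to 5.43 to 11.1 CPM in control MII libraries. At GV the list summed to 47.9 to 78.0 CPM in cKO and 50.7 to 81.0 CPM in control libraries. Most of these GV sums was C1qb, at 47.3 to 78.6 CPM. The source of the Ctss counts was not tested. With 0 counts a gene's level is limited to at most 0.0738 CPM over 12 libraries, from 3 counts. The neutrophil protease Ctsg was also at 0, and the gastric aspartic protease Ctse had 2 counts. Of the widely expressed cysteine cathepsins under the filter, Ctsz was at 7.66, 0.908 and 1.07 CPM in cKO MII, 2.18, 7.85 and 1.90 CPM in control MII, 2.18, 0.827 and 0 CPM in cKO GV and 2.37, 0.792 and 1.28 CPM in control GV libraries, highest in control MII library 2 and cKO MII library 1. Ctso had 14 counts, Ctsf 10, and Lipa, the lysosomal acid lipase, 30.

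The 2 major membrane glycoproteins of the lysosome moved apart. Lamp1 was lower at MII. Lamp1 had 151, 179 and 106 CPM in cKO MII libraries and 246, 309 and 427 CPM in cKO GV libraries. It had 139, 181 and 199.9 CPM in control MII libraries and 335, 338 and 312 CPM in control GV libraries. The stages did not overlap, and the change was -1.02, SE 0.20, adjusted p = 2.8e-04 in cKO and -0.79, SE 0.20, adjusted p = 0.0023 in control oocytes. Lamp2, the receptor of chaperone-mediated autophagy in one of its isoforms, was far lower than Lamp1 at GV and higher at MII. Lamp2 had 45.2, 30.6 and 19.2 CPM in cKO MII libraries and 8.09, 10.2 and 9.998 CPM in cKO GV libraries. It had 24.3, 32.6 and 32.9 CPM in control MII libraries and 13.9, 7.65 and 11.7 CPM in control GV libraries. It was 3.66-fold higher in cKO (1.87, SE 0.30, adjusted p = 2.9e-05) and 2.98-fold higher in control oocytes (1.58, SE 0.29, adjusted p = 1.3e-04), and close to 0 at ERCC library sizes (-0.36 in cKO, -0.11 in control). Per kb of exon, Lamp1 stood at 54.4 ± 13.7 and Lamp2 at 3.32 ± 1.36 CPM per kb in cKO MII libraries, against 122 ± 34.3 and 0.987 ± 0.122 in cKO GV libraries (mean ± SD, n = 3).

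The cholesterol exporters also differed from each other. Npc1, the transporter of the lysosomal membrane, was at 203, 203 and 197 CPM in cKO MII and 122, 146 and 121 CPM in cKO GV libraries (0.77, SE 0.17, adjusted p = 5.4e-04), and at 162, 189.6 and 196 CPM in control MII and 135, 109.8 and 129 CPM in control GV libraries (0.69, SE 0.16, adjusted p = 0.00134). It was higher in both, below 0 at ERCC library sizes. Npc2, the soluble protein that hands cholesterol to it, did not pass (-0.42, SE 0.18 in cKO, -0.27, SE 0.18 in control). Scarb2, the receptor that carries glucocerebrosidase, did not pass (0.49, SE 0.60 in cKO, 0.92, SE 0.58 in control), nor did Mcoln1 (1.07, SE 0.5 and 0.82, SE 0.47). The value of Mcoln1 depended on single libraries: in control oocytes it was -0.26 without MII library 1 and 1.22 without MII library 2 (adjusted p = 0.0126), and in cKO oocytes it passed in 3 of 12 fits with 1 library left out.

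Grn did not pass in cKO oocytes, with 41, 49.3 and 39.9 CPM at MII and 42.6, 39.4 and 49.3 CPM at GV (0.13, SE 0.28). In control oocytes it was at 126, 58.9 and 65.7 CPM at MII and 42.3, 48.3 and 43.2 CPM at GV (1.07, SE 0.27, adjusted p = 0.00198), and 0.56 without MII library 1 (adjusted p = 0.025). The difference between genotypes was -0.94, SE 0.39 (adjusted p = 0.875), or -0.43 without that library. Psap, the precursor of the saposins that present lipids to hydrolases, passed in cKO alone (1.06, SE 0.43, adjusted p = 0.0374), at 17.2, 19.7 and 7.13 CPM at MII and 11.8, 6.34 and 4.67 CPM at GV, which overlapped. It did not pass without any of 4 libraries (adjusted p 0.0887 to 0.17), and in control oocytes it was at 0.15, SE 0.42.

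In all, the difference between the genotypes' maturation changes passed for 0 of 44 members in edgeR, against a background of 0.00862%, 1 of 11607 genes. DESeq2 called 0, 5 members had an unadjusted p under 0.05 in edgeR, as had 5.24% of all genes, and the smallest adjusted p was 0.875. The intervals of 13 of the 44 lay within 2-fold, and those of the other 31 reached past it. A member that passed in 1 genotype is therefore not shown to differ between them.

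Of the transcription factors that drive lysosomal genes, Tfeb had 0 counts in all 12 libraries, Tfe3 was lower and Mitf higher at MII. Tfe3 had 26.8, 37.2 and 26.4 CPM in cKO MII libraries and 133, 111 and 64.98 CPM in cKO GV libraries. It had 38.98, 31.4 and 33.7 CPM in control MII libraries and 91.99, 115 and 88.1 CPM in control GV libraries. Tfe3 was 3.13-fold lower in cKO (-1.64, SE 0.27, adjusted p = 4.0e-05) and 2.56-fold lower in control oocytes (-1.36, SE 0.27, adjusted p = 2.2e-04). Mitf had 12.6, 9.38 and 13.9 CPM in cKO MII libraries and 6.22, 7.99 and 7.66 CPM in cKO GV libraries. It had 10.1, 14.5 and 13.03 CPM in control MII libraries and 7.78, 6.33 and 3.41 CPM in control GV libraries. Mitf was 1.81-fold higher in cKO (0.85, SE 0.33, adjusted p = 0.0315), a call lost when any of 5 libraries was left out, and 2.40-fold higher in control oocytes (1.26, SE 0.33, adjusted p = 0.00281). It was at -1.47 in cKO and -0.37 in control oocytes at ERCC library sizes. Per kb of exon, Tfe3 was above Mitf in all 4 groups, with 3.25 ± 0.663 and 1.93 ± 0.376 in cKO MII and 11.1 ± 3.75 and 1.18 ± 0.152 CPM per kb in cKO GV libraries.

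The E-box bound by these factors, CACGTG, and its longer form TCACGTGA, the core of the lysosomal CLEAR element, were searched in RefSeq promoters (GRCm38.p6, 250 bases before to 50 after the start). Both read the same on either strand, and each TCACGTGA also holds a CACGTG. Of 51 members with a promoter in the table, 12 had a CACGTG (23.5%), compared with 8.09% of 27025 genes. The longer form was in 6 members (11.8%), compared with 1.12% of genes. The background is all genes with a RefSeq promoter, not those expressed in oocytes. The members were chosen as lysosomal genes and the element is known from such genes, so the larger share is no finding about oocytes. The motif was found in promoters of both directions of change, in 2 of 10 members higher in both genotypes and in 4 of 9 lower in both. Binding was not measured, and a match says only that the letters are there. The windows below are shown because the motif stands in members that were lower, higher or not called at MII. Capitals mark the motif, and the lines give the RefSeq strand from 5′ to 3′.
Lamtor4, lower at MII (chr5:138255350-138255379, plus strand): gcagaaagttaaCACGTGaacagcttttca
Lamtor4, second site (chr5:138255366-138255395, plus strand): tgaacagcttttCACGTGtaaaccaaacca
Atp6v0d1, lower at MII (chr8:105566050-105566079, minus strand): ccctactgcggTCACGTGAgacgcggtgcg
Lamp1, lower at MII, 1 of 4 sites (chr8:13159088-13159117, plus strand): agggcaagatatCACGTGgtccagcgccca
Atp6v1a, higher at MII (chr16:44139373-44139402, minus strand): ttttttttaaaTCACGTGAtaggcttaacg
Ctsd, lower at MII in cKO (chr7:142387908-142387937, minus strand): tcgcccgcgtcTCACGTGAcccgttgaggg
Mcoln1, not passing (chr8:3500462-3500491, plus strand): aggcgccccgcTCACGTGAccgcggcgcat
In Lamtor4 the sites lie 120 and 104 bases before the RefSeq start, in Atp6v1a 131 bases before it and in Atp6v0d1 across it. In GENCODE M21 Atp6v1a begins further upstream, at 44139705 on the minus strand, so its window lies inside that annotated gene. The same letters thus stand in the windows of Atp6v0d1, which was 6.46-fold lower at MII in control oocytes, and of Atp6v1a, which was 2.38-fold higher.

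The 3′ ends of the mRNAs were compared as well, because cytoplasmic polyadenylation elements (CPE), U-rich motifs near the poly(A) signal, are known to direct tail lengthening during maturation. The DNA letters TTTTAT or TTTTAAT were searched on the sense strand in the 100 bases before the last poly(A) signal (AATAAA or ATTAAA) of GENCODE M21 transcripts, and overlap with the signal was allowed. For each gene 1 protein-coding transcript with a signal in its last 50 bases was used, and genes without such a transcript were left out. Among several, that with the longest coding sequence was taken, then that with the longest 3′ UTR. The isoforms that oocytes use were not measured. Over all genes tested, 753 of 2375 genes higher at MII in both genotypes had a CPE (31.7%), compared with 183 of 2392 genes lower in both (7.65%). Among members it was in 1 of 13 that were higher in both, Lamtor3, in 0 of 12 that were lower in both, and in 3 of 16 others (Atp6v1b2, Ctsa and Scarb2). Most members that were higher at MII thus had no such letters in this window. Median 3′ UTR length was 986 bases in the members higher in both and 411 bases in those lower in both, compared with 1434 and 517 bases over all genes tested. The windows of the 4 dimer subunits of Ragulator are shown because these mRNAs changed in opposite directions; Lamtor3 alone of the 4 holds the motif. Capitals mark the poly(A) signal and, in Lamtor3, also the CPE 11 bases before it (GRCm38, sense strand, 5′ to 3′).
Lamtor3, higher at MII (chr3:137928715-137928744, plus strand): ggccattTTTTATacatgtgtataAATAAA
Lamtor2, higher at MII (chr3:88549832-88549861, minus strand): ggaagggggggttgcttttttctgAATAAA
Lamtor4, lower at MII (chr5:138259340-138259369, plus strand): gaccccttttcttcccttctgcctAATAAA
Lamtor5, lower at MII (chr3:107284038-107284067, plus strand): tgtatatagaacttcattatggccAATAAA
In the transcripts used, the 3′ UTRs of these 4 are 745, 129, 258 and 384 bases long. Lamtor2 was thus higher at MII with the shortest of them and without the motif.

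Genes that work with the members were counted over 6 lists of textbook members, with changes again relative to all genes, of which 29.5% were higher and 34% lower at MII in cKO and 30.1% higher and 33.8% lower in control oocytes. In edgeR 0 genes of these lists passed between genotypes at either stage or in the difference of the changes, with 0 to 4 genes of a list at an unadjusted p under 0.05. Of 10 tested genes for V-ATPase assembly and regulation, 5 were higher and 4 lower at MII in each genotype. Vma21, an assembly chaperone of V0, was higher (1.34 in cKO, 1.23 in control). Rogdi, a subunit of the RAVE-like complex that joins V1 to V0, was lower (-3.28 in cKO, -3.58 in control), while Dmxl1 and Dmxl2 of the same complex were higher (1.18 and 1.01 in cKO, 0.94 and 1.09 in control). Of 27 tested genes of the Rag and mTORC1 pathway, 7 were higher and 9 lower in cKO and 8 higher and 10 lower in control oocytes. Rragc, a Rag GTPase held by Ragulator, was higher (1.04 in cKO, 1.33 in control), as was Rheb, the GTPase that activates mTORC1 (1.44 and 1.5). Tsc2, which switches Rheb off, was lower (-3.37 and -2.79), and so was Slc38a9, a lysosomal arginine sensor that helps to activate mTORC1 (-1.46 and -1.98).

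Of 15 tested genes that sort enzymes to lysosomes, 0 were higher, 7 lower in cKO and 8 lower in control oocytes. They include Gnptg (-2.16 in cKO, -1.22 in control), part of the enzyme that makes the mannose 6-phosphate tag, and Ap1m1 (-2.07 and -1.59), of the adaptor AP-1. Of 23 other soluble lysosomal hydrolases, 5 were higher and 11 lower in cKO and 3 higher and 11 lower in control oocytes, with Smpd1, acid sphingomyelinase, lower (-3.86 and -3.68). Gm2a, the GM2 activator, was higher (4.50 and 2.58). Of 21 other membrane proteins, 1 was higher and 3 lower in cKO and 3 higher and 3 lower in control oocytes, among them Clcn3, a chloride-proton exchanger (1.23 and 1.27). Of 5 tested cathepsin inhibitors, 1 was higher and 1 lower in cKO and 1 higher and 3 lower in control oocytes. Cst3, cystatin C, was lower (-2.79 in cKO, -3.68 in control).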

How the data were processed

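Whole-number counts per gene in single-stage oocyte libraries (Smart-seq2 with ERCC spike-ins, KAPA HyperPlus library preparation, 5 oocytes per library) were used as the authors deposited them. Per the submitters' processing notes, fastp, HISAT2 and featureCounts were used with build mm10, the annotation, strand setting and treatment of reads with several matches being not given in the sources used here. Columns C were read as control and T as cKO. Another 6 columns, whose names match no label, were not used, the 6 samples of 2-cell embryos (32 h after insemination) were not analysed here, and 92 ERCC rows were kept out of library sizes and tests. Depth was 2609783 to 4696626 gene counts per library. A count of 0 is given as at most 3 counts, a limit that covers counting error only.

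Fits used edgeR 4.0.16 with limma 3.58.1 in R 4.3.3: filterByExpr, TMM scaling, a robust quasi-likelihood fit without a replicate block and Benjamini-Hochberg adjustment over all genes tested, with a threshold of 0.05. Genotypes were compared within a stage over 6 libraries, and stages and the difference of the stage changes in 1 fit of 12. DESeq2 1.42.0, RLE factors, ERCC library sizes, no filter, a fit that was not robust, the replicate number as a block, other sample sets and leaving out each library were alternatives. The fits were tested on simulated data. Levels per kb are CPM divided by the length of all annotated exons. Near-identical copies and overlaps came from GENCODE M21. Besides the members named above with them, Atp6ap2, Atp6v0a2, Atp6v0a4, Atp6v0b, Atp6v1e2, Atp6v1f, Atp6v1g1, Ctsa, Ctsm, Mcoln1 and Npc1 share near-identical stretches with other genes. The same limit on shared reads holds for them.

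The members, lists and alternatives were chosen with earlier results of these data known. Members named with values in every library were those past the threshold in a genotype comparison or the difference, up to 6 highest and 6 lowest past it in each stage comparison, the 3 with the smallest p in each genotype comparison, the most abundant in each role, the transcription factors and the most abundant paralogs of a pump subunit. Others were added with their values seen.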

Additional observations from a re-analysis of the deposited data

How the results depend on the processing

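Without a filter on low counts, 2 members passed between cKO and control at MII, Ctss (higher, adjusted p = 0.0102, all counts in 1 library; its fitted 6.13 depends on the prior count) and Grn (lower, -1.03, adjusted p = 0.00195), against 0 with the filter; the cause was not tested. Every other alternative left 0 calls in the genotype comparisons and in the difference of the changes. Over maturation, 29 to 41 members passed in cKO and 29 to 32 in control oocytes with all libraries, and 28 to 35 in cKO and 28 to 32 in control with 1 library left out. At any 1 library left out, 26 of the 32 calls in cKO and 27 of the 31 in control held.

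ERCC library sizes lower every gene of the MII libraries by their larger ERCC share, and reversed these changes, MII over GV. In cKO they were Atp6ap2 -1.46, Atp6v0a4 -1.61, Atp6v1a -1.38, Atp6v1c2 -0.20, Atp6v1h -1.39, Lamp2 -0.36, Lamtor2 -1.42, Lamtor3 -1.21, Mitf -1.47, Npc1 -1.57, Psap -1.31 and Tpp1 -0.39. In control they were Atp6ap2 -0.67, Atp6v0a4 -0.74, Atp6v1a -0.48, Atp6v1b2 -1.0, Atp6v1c1 -0.17, Atp6v1h -0.87, Grn -0.76, Lamp2 -0.11, Lamtor2 -0.50, Lamtor3 -0.61, Mitf -0.37, Npc1 -1.03 and Tpp1 -0.39. Of the other alternative values of single members, 3310 stayed on their side of the threshold, and 42 lost and 27 gained a call with the same sign. Another 123, of members without a call in the fits above, moved by at least the SE or passed with the opposite sign. Some members passed in that way at ERCC library sizes in cKO oocytes, where 38 of 44 passed as lower.

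The labels share replicate numbers, but same-numbered libraries did not deviate together (correlations -0.2265 to 0.2109), and at most 1 of 6 libraries correlated best with its own number. With the replicate block, 31 members passed in cKO and 32 in control oocytes over maturation, and 0 in the other comparisons. Members with few counts are the limit of depth: 22 of 66 could not be tested.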
